A study of Mus musculus with 8 samples.

Results

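Cells caught in the act of division were looked for among the joint leukocytes of arthritic mice, leaving out those of the neutrophil lineage. A cell was counted when it held at least 4 unique molecular identifiers (UMIs, each standing for 1 captured transcript) of 5 cell cycle genes together, Top2a, Mki67, Pclaf, Rrm2 and Ube2c, and when S100a8 and S100a9, the most abundant transcripts of neutrophils, made up less than 5% of its UMIs. This rule found 50 of the 10256 cells kept (0.488%), 17 in Mono and 33 in Mono+MCTR3. The cells were thus selected on these 7 genes, whose levels in them are a description and not a result. Nearly all of them fell into 4 lineages, with 22 cells counted as B lineage, 15 as monocytes, 6 as T or natural killer (T/NK) cells and 5 as erythroid.

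Arthritis had been induced in C57BL/6 mice, aged 10 weeks per the methods, by injecting 100 µL of serum from K/BxN mice, which carries antibodies that inflame joints, on day 0 and again on days 2 and 9. On day 12 both groups received monocytes taken from arthritic mice. These had been kept for 90 min with vehicle (Mono, 4 mice) or with 1 nM of MCTR3, a lipid mediator of the maresin conjugate family (Mono+MCTR3, 4 mice), so that mice given no monocytes form no group here. The number given is stated as 2000000 per mouse in the methods but as 1000000 in the results text. Paw joints were taken on day 22, dead cells were removed, and CD45+ cells were sorted and sequenced with the 10x Chromium 3′ chemistry. Transferred and host cells carry no label that separates them in these tables.

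Between 758 and 1913 cells were kept per mouse, with a median of 1686 to 2428 UMIs per cell and 1731045 to 6009009 UMIs per mouse. A mouse is known by the barcode suffix in the table of its group, which does not say which labelled animal it was. Libraries shared 0 to 7 barcodes within a group and 0 to 4 between groups, and 0 of the 50 cells had a barcode found in another library. Mono+MCTR3 mouse 2 stood apart in number, with 21 of the 50 cells. It also had the highest of each of these values, with 1913 cells, 6009009 UMIs and a median of 2428 UMIs per cell. The part of this depth in its count was not tested.

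A dividing cell copies its DNA in S phase and parts the copies in mitosis, after the gap called G2. Pclaf, a partner of the replication clamp, and Rrm2, a subunit of the enzyme that makes deoxynucleotides, belong to S phase, while Top2a, which untangles DNA, Mki67, which coats mitotic chromosomes, and Ube2c, which helps to mark cyclins for destruction, belong to G2 and mitosis. Most blood cells divide as precursors in the bone marrow and stop before they enter tissue. Early B-cells divide in bursts around the first rearrangement of an immunoglobulin gene, red cell precursors divide several times while haemoglobin builds up, and lymphocytes divide again after they meet antigen. Whether a cell of these samples lay in synovium, blood or marrow cannot be told apart.

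The promoters of the 5 cell cycle genes are shown because they chose the cells and are switched on together in dividing cells. Many genes of this kind carry CCAAT boxes, bound by NF-Y, and a cell cycle element written TTTGAA, bound by the complexes that hold them silent in resting cells. The 120 bases before the start of each gene are printed 5′ to 3′ on the strand of the gene (RefSeq, GRCm38.p6), with each CCAAT and TTTGAA, or its reverse complement ATTGG or TTCAAA, in capitals.
Top2a, chr11:99024190-99024309, minus strand: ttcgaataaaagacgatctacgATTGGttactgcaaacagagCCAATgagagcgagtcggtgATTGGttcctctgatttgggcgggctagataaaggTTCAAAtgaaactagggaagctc
Mki67, chr7:135716380-135716499, minus strand: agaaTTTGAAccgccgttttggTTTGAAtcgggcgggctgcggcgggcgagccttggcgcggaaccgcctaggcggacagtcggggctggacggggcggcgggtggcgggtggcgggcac
Pclaf, chr9:65890203-65890322, plus strand: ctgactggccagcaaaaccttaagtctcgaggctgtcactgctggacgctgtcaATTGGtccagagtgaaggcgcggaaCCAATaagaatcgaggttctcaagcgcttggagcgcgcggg
Rrm2, chr12:24708134-24708253, plus strand: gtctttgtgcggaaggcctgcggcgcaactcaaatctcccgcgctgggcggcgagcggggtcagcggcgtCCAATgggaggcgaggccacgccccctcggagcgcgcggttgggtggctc
Ube2c, chr2:164769809-164769928, plus strand: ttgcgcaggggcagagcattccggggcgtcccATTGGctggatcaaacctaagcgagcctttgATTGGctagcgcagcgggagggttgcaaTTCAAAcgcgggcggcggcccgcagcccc
Top2a held 3 CCAAT boxes in this window, Pclaf 2, Ube2c 2 and Rrm2 1, and Mki67 held none. TTTGAA or its complement lay once in Top2a and Ube2c and at 2 places in Mki67. Among 32851 promoters, 21.3% held a CCAAT box and 7.12% a TTTGAA in the same 120 bases on either strand. A match of letters is no proof of a bound site.

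The 5 genes were concentrated in few cells. The 50 cells held 87.9% of the 1493 UMIs of these genes in all 3678 cells with little S100a8 and S100a9. Pclaf gave 442 UMIs in the 50 cells, Rrm2 326, Top2a 235, Ube2c 182 and Mki67 128. Mki67 was seen in 41 of the 50 cells and Pclaf in 45, while Ube2c was seen in only 26. The sum over the 5 genes ran from 4 to 82 UMIs per cell, with a median of 24.5. At the cut, 7 cells stood at exactly 4 UMIs and 10 cells stood just outside it at 3. On the other limit, the highest share of S100a8 and S100a9 inside was 4.38%, the next highest 0.629%, and the lowest outside was 7.51%.

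**Figure D1:**
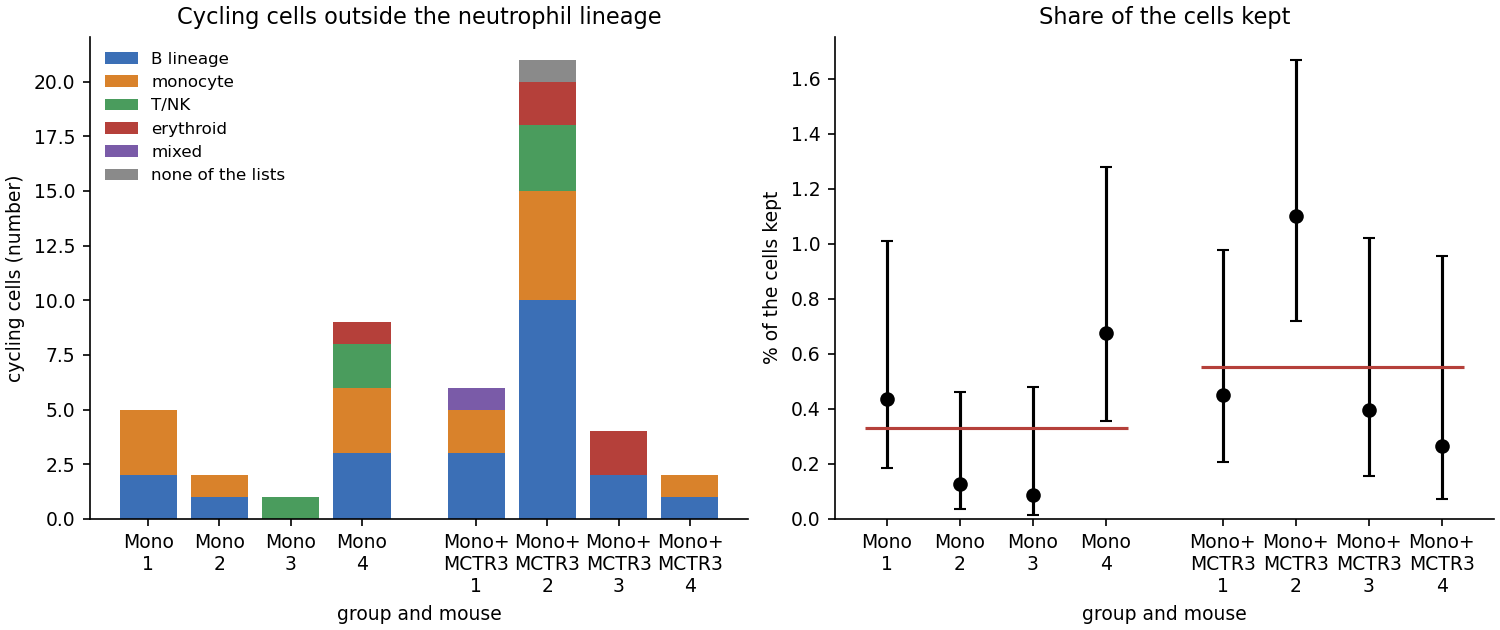
Left, the number of cycling cells outside the neutrophil lineage in each mouse (bars from 0), coloured by lineage. Right, their share of the cells kept in that mouse (points, %), with 95% Wilson intervals and the group mean as a red line. Mono+MCTR3 mouse 2 holds 21 of the 50 cells, and the other 7 mice hold 1 to 9 each.

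Whether the joints of the 2 groups differed in the share of dividing cells was compared over mice. In Mono the share was 0.434%, 0.127%, 0.0849% and 0.676% in mice 1 to 4, and in Mono+MCTR3 it was 0.449%, 1.1%, 0.397% and 0.264%. Mice of both groups overlapped, with the highest value in Mono+MCTR3 mouse 2 and the lowest in Mono mouse 3. The mean was 0.33% ± 0.278 (SD, n = 4) in the first group and 0.552% ± 0.372 (SD, n = 4) in the second, and the difference missed the threshold (two-sided exact permutation test, p = 0.429, smallest possible p 0.0286). Without Mono+MCTR3 mouse 2 the difference fell from 0.222 to 0.0397 percentage points. Wilson intervals ran from 0.719% to 1.67% in that mouse and from 0.015% to 0.479% in Mono mouse 3, and they cover counting error only.

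Cells that met the same cut on cell cycle UMIs but had S100a8 and S100a9 at 5% or more numbered 4, 1, 4 and 4 in Mono and 6, 12, 5 and 0 in Mono+MCTR3. The rule leaves them out as neutrophil lineage, and whether each of them belonged to it was not tested. With the limit at 10%, the 50 cells became 52. The added cells were counted as B lineage in Mono mouse 4 and as progenitor in Mono+MCTR3 mouse 2, by the lineage markers given below. Those markers hold no neutrophil set, so this count does not place the added cells outside that lineage. The log2 ratio of cycling cells under the 5% limit to those at or above it, with 0.5 cells added to both, had a mean of 0.13 in Mono (SD 1.19, n = 4) and of 0.70 in Mono+MCTR3 (SD 1.17, n = 4). This difference was smaller than the spread between mice (exact permutation test, p = 0.543), and it fell from 0.57 to 0.00222 without Mono mouse 3 and to 0.0344 without Mono+MCTR3 mouse 4. The S100-rich cells had a median of 2191 and a lowest value of 92 UMIs of 11 neutrophil markers such as Ngp, Camp and Ltf. In the 50 cells the median was 7 and the highest value 28. S100a8 itself was seen in all 50 cells, with a median of 12 UMIs, and the share of both S100 genes had a median of 0.233% in them and 0.272% in the other S100-low cells.

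Lineage was read from UMIs of Cd79a and Vpreb3 (B), Hba-a1 and Car2 (erythroid), Cd3d, Cd3e, Cd3g, Trbc2, Nkg7 and Klrb1c (T/NK), Ly6c2 and F13a1 (monocyte) or Mpo (progenitor), where the leading set had at least 2 UMIs and 2 times the next. The B lineage gave 22 of 1392 cells (1.58%, 95% Wilson interval 1.05 to 2.38), and monocytes gave 15 of 245 (6.12%, 3.75 to 9.85). T/NK cells gave the lowest share, 6 of 1283 cells (0.468%, 0.215 to 1.02). These intervals pool the cells of all 8 mice and cover counting error only, and the lineages were not tested against each other. Mono+MCTR3 mouse 2 gave 10 of the 22 B lineage cells and 3 of the 6 T/NK cells. Cells counted as erythroid gave 5 of 27 (18.5%, 8.18 to 36.7). This set is mixed: the 22 that were not cycling had a median of 3.5 UMIs of a list of 18 erythroid genes, and 6 had 0. The 18.5% is therefore not a share of clearly erythroid cells. One cell was mixed and 1 had none of the sets, and the progenitor set led in 0 of them.

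This order differed at equal depth. The 50 cells were large, with a median of 7993 UMIs against 2460 in the other S100-low cells. When each cell was thinned to 1000 UMIs and 2 UMIs of the 5 genes were asked for, 19 of 1387 B lineage cells (1.37%) and 4 of 27 erythroid cells (14.8%) passed. Only 3 of 244 monocytes (1.23%, 0.419 to 3.55) and 2 of 1270 T/NK cells (0.157%, 0.0432 to 0.572) did. The lead of the monocytes over the B lineage was no longer seen, though their intervals overlapped, so no reverse order is shown. For monocytes 2 in 1000 UMIs is also a strict rate, as the 15 cycling ones had a median of 5 UMIs of the 5 genes among a median of 9170. The lower cut alone, without thinning, kept that lead, with 29 of 245 monocytes (11.8%) and 26 of 1392 B lineage cells (1.87%). This cut was added once the data had been seen. Thinning left out 415 cells of Mono and 211 of Mono+MCTR3 as too shallow.

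Marker lists that the rule did not use described the cells in more detail.

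**Figure D2:**
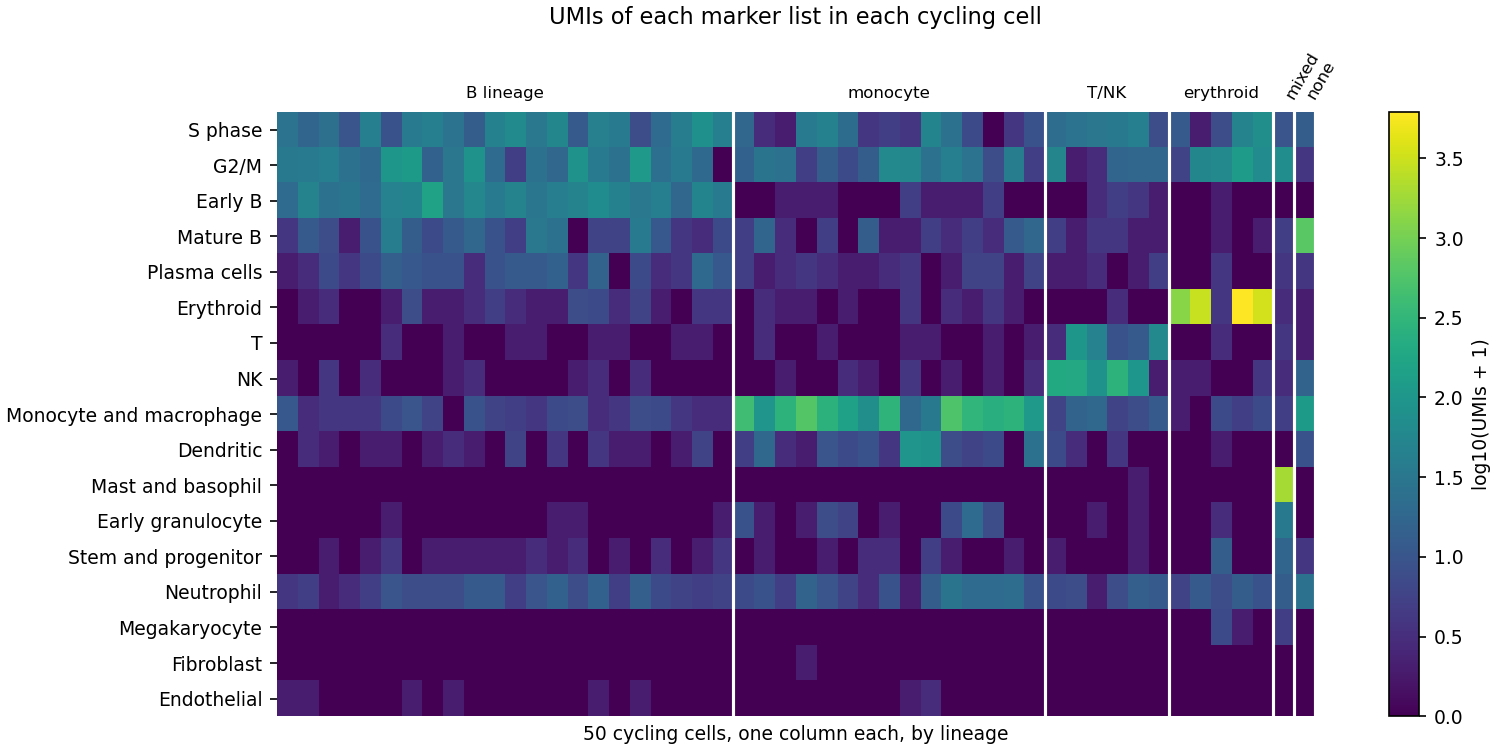
UMIs of 17 marker lists (rows) in each of the 50 cycling cells (columns, grouped by lineage), as log10(UMIs + 1). B lineage cells hold the Early B list, with 17 to 151 UMIs each, 4 of 5 erythroid cells hold 1292 to 6189 UMIs of the Erythroid list, and single columns stand out for the Dendritic, Mast and basophil and Mature B lists.

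The 22 cycling B lineage cells were early B-like, chiefly by their low levels of mature B genes. All of them carried Ebf1, a factor that commits cells to the B lineage, with 3 to 31 UMIs and a median of 15, and all carried Cd79b, the partner of Cd79a in the B-cell receptor. They held 17 to 151 UMIs of the 12 genes of the Early B list. These are raw counts from deep cells, with a median of 6823 UMIs against 2246 in the other 1370 B lineage cells. Per UMI, the 12 genes together were no higher in the 22 cells than in those 1370. Ebf1 stood at 2168 against 2314 CPM and Cd79b at 1406 against 3098 CPM. Other genes of the list went the other way, such as Blnk (434 against 255 CPM) and Sox4 (613 against 236 CPM). Ms4a1, Fcer2a and Cr2, surface proteins of mature B-cells, gave 0 UMIs in the 22 cells, and Ighd gave 1. Cd74, the chaperone of MHC class II, stood at 588 CPM in them and at 23686 CPM in the B lineage cells that were not cycling and held no excess of the Early B list. Cd74 is itself in the Mature B list, which helped to set those other cells apart, so this contrast is a description and not a result. Vpreb3, one of the genes that assigned the lineage, stood at 3141 CPM in the 22 cells and gave 8 to 34 UMIs per cell. Chchd10 and Myl4, at 1375 and 1010 CPM, led the cycling B lineage cells against the other cycling cells together with Vpreb3, Ebf1 and Cd79a.

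Cells with more UMIs of the Early B than of the Mature B list made up 127 of the 1392 B lineage cells, a split chosen after the values were seen. Of these 127 cells, 20 were cycling (15.7%), and of the other 1265 cells 2 were (0.158%). Both of those had nearly equal sums, with 30 and 32 UMIs of the Early B against 32 and 34 of the Mature B list. The cells of the early class that were not cycling had a median of only 1973 UMIs, against 6823 in the 22 cycling cells.

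Stage within the early B class was read from the surrogate light chain. Igll1 and Vpreb1, which stand in for a light chain on pre-B-cells, and Dntt, which adds bases to rearranging heavy chain genes, were seen in 7 of the 22 cells. Igll1 gave 75 UMIs in 7 cells, Vpreb1 44 in 6, and all 32 UMIs of Dntt came from 1 cell of Mono+MCTR3 mouse 1. Ighm, the heavy chain of IgM, was seen in 22 of 22 cells with 13 to 71 UMIs, and Igkc, a light chain gene, in 20, both named after their values were seen. The 7 cells lay in Mono+MCTR3 mice 1, 2 and 3, with 2 of 3, 4 of 10 and 1 of 2 B lineage cells, and 0 of the 6 cells of Mono held any of the 3 genes. This contrast did not outlast the limit of 3000 genes per cell, since the B lineage cell of Mono mouse 1 beyond it, with 4199 genes, held Igll1 and Vpreb1.

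Group values of the B lineage were higher in Mono+MCTR3, but no test passed after adjustment over the lineages. Even the smallest possible exact permutation p, 0.0286, cannot pass that adjustment in 1 lineage alone. As a share of all cells kept, cycling B lineage cells stood at 0.173%, 0.0634%, 0% and 0.225% in Mono and at 0.224%, 0.523%, 0.199% and 0.132% in Mono+MCTR3. The groups overlapped, at 0.116% ± 0.102 against 0.269% ± 0.173 (mean and SD over 4 mice, p = 0.2 by exact permutation, 0.8 adjusted). Without Mono+MCTR3 mouse 2 this difference fell from 0.154 to 0.0695 percentage points. As a share of the B lineage cells of the mouse, they stood at 1.08%, 1.03%, 0% and 1.38% in Mono and at 1.3%, 2.19%, 3.64% and 1.85% in Mono+MCTR3. Here 3 of the 4 Mono+MCTR3 mice lay above every Mono mouse, and the shares averaged 0.871% ± 0.6 against 2.25% ± 0.996 (SD over 4 mice, p = 0.0571 by exact permutation, 0.171 adjusted). In Mono mouse 3, 0 of 95 B lineage cells were cycling, which allows a share of up to 3.16%.

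Without the upper limit of 3000 genes, every Mono+MCTR3 mouse lay above every Mono mouse in the share of B lineage cells that were cycling. The means were then 1% and 3.49% (exact permutation p = 0.0286, the smallest possible, and 0.0857 adjusted over the lineages). Within the early class alone, the share that was cycling was 10.5%, 14.3%, 0% and 23.1% in Mono and 13.6%, 16.7%, 16.7% and 25% in Mono+MCTR3. These rest on 2 to 48 cells per mouse and the groups overlapped, with 0 of 2 cells cycling in Mono mouse 3 (12% ± 9.56 against 18% ± 4.89, SD over 4 mice a group, exact permutation p = 0.343). The early class itself was 10.2%, 7.22%, 2.11% and 5.96% of the B lineage cells in Mono and 9.57%, 10.5%, 21.8% and 7.41% in Mono+MCTR3, and its part in the higher share was not tested.

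Cell cycle genes outside the rule were then used to place the cells in the cycle. These were an S phase list of 14 genes, such as Pcna, Dut and the Mcm genes that unwind DNA, and a G2/M list of 21 genes, such as Birc5, Cenpa, Ccnb2 and Cdk1. Summed per 10000 UMIs, both lists together ran from 6.94 to a high of 177 in the 50 cells, and 47 of the 50 exceeded 20. So did 101 of the other 3628 S100-low cells, of which the highest reached 171, and 36 of the 50 S100-low cells with the highest sums met the rule. All 22 B lineage cells, at 61.9 to 177, lay above every other B lineage cell, of which the highest reached 57.4. The 5 cells counted as erythroid, at 61.5 to 112, also lay above the other 22 cells of their mixed set, which reached 48.6.

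In monocytes the separation was incomplete. The 15 cycling monocytes ran from 6.94 to 91.3 per 10000, with a median of 36.8, while the other 230 had a median of 2.66 and 38 of them lay above the lowest cycling one. Of the 15, 10 held only 4 to 6 UMIs of the 5 genes, and raising the cut from 4 to 6 UMIs left 7. T/NK cells stood between, with 29.7 to 105 in the 6 cycling cells and 6 of the other 1277 above the lowest of them.

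**Figure D3:**
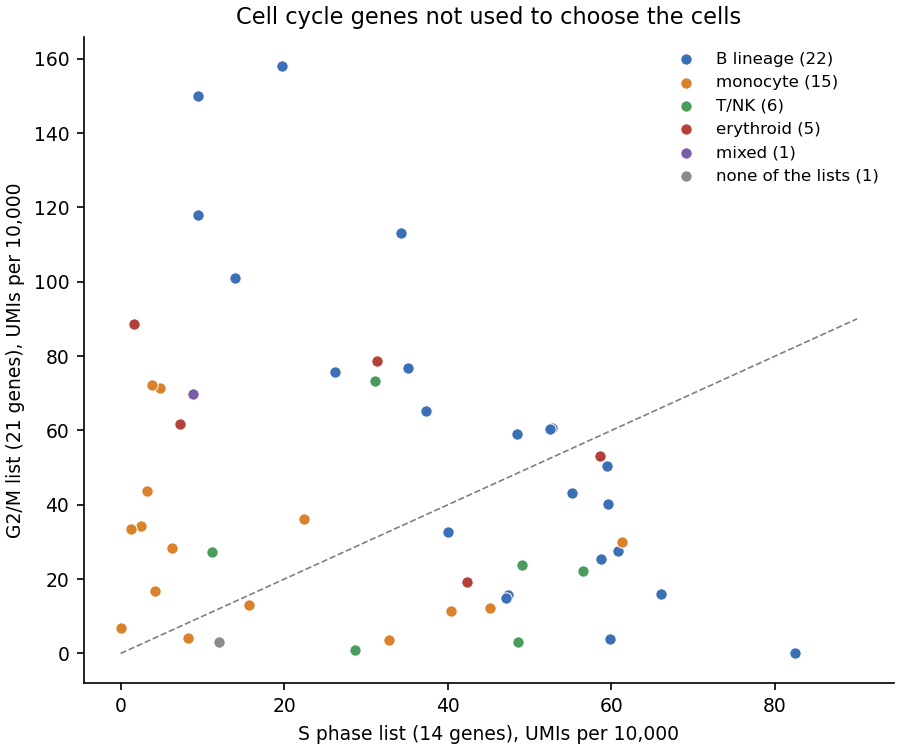
Each of the 50 cycling cells by its UMIs per 10000 of the S phase list (horizontal) and the G2/M list (vertical), coloured by lineage, with the line of equal values dashed. Cells lie on both sides of the line, 26 above and 24 below, and B lineage cells reach the highest values of both lists.

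G2/M UMIs exceeded S phase UMIs in 11 of 22 B lineage cells, 9 of 15 monocytes, 3 of 5 erythroid and 2 of 6 T/NK cells. Among B lineage cells this held in 5 of 6 cells of Mono and 6 of 16 of Mono+MCTR3. By mouse, it was 2 of 2, 1 of 1 and 2 of 3 in Mono mice 1, 2 and 4, and 2 of 3, 4 of 10, 0 of 2 and 0 of 1 in Mono+MCTR3. Mouse 4 of Mono and mouse 1 of Mono+MCTR3 had the same proportion, and with 1 to 10 cells per mouse the difference was not tested.

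Of the 15 cells counted as monocytes, 13 held 73 to 607 UMIs of the monocyte and macrophage list. Lyz2, lysozyme, stood at 11 to 506 UMIs in them with a median of 210. Ccr2, the receptor that brings monocytes to inflamed tissue, gave 73 UMIs with a median of 6 per cell, and Fn1, fibronectin, gave 69. C1qa and C1qb, complement genes of resident macrophages, gave 0 UMIs in all 13, and Csf1r gave 0 to 3 per cell. Prtn3, a granule protease of young myeloid cells, was seen in 7 of 15, with at most 6 UMIs. One of these cells, in Mono+MCTR3 mouse 2, held the 4.38% of S100a8 and S100a9 named above, with 22 UMIs of the neutrophil list.

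The other 2 cells counted as monocytes went against that name. They held 94 and 86 UMIs of the Dendritic list, with only 18 and 33 of the monocyte and macrophage list, and 0 UMIs of F13a1, Ccr2 and Csf1r. Irf8, a factor needed by dendritic cells, gave 40 to 42 UMIs, Cox6a2 21 to 31, Bst2 12 to 17 and Siglech, a receptor of plasmacytoid dendritic cells, 8 to 9, while Xcr1 and Clec9a of conventional dendritic cells were at 0. Their Ly6c2, with 6 and 18 UMIs, had put them into the set. Both came from Mono+MCTR3, 1 each from mice 1 and 2. In all, 50 S100-low cells held 50 or more UMIs of the Dendritic list, 17 in Mono and 33 in Mono+MCTR3, and 2 of the 50 were cycling (4%, Wilson interval 1.1 to 13.5).

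Group values of cycling monocytes overlapped. Their share of the monocytes was 7.14%, 5%, 0% and 8.11% in Mono and 8%, 6.67%, 0% and 12.5% in Mono+MCTR3, averaging 5.06% ± 3.62 against 6.79% ± 5.17 (SD over 4 mice, p = 0.657 by exact permutation, 0.986 adjusted). The 12.5% of Mono+MCTR3 mouse 4 is 1 of 8 cells. These counts hold both cells with dendritic markers, 1 of the 2 cycling cells of Mono+MCTR3 mouse 1 and 1 of the 5 of mouse 2. Leaving out every cell with 50 or more UMIs of the Dendritic list, chosen after seeing the data, kept 202 of the 245 monocytes and 13 of the 15 cycling ones. The shares were then 8.57%, 5.56%, 0% and 8.82% in Mono and 4.76%, 7.14%, 0% and 20% in Mono+MCTR3, still overlapping (5.74% ± 4.1 against 7.98% ± 8.55, SD over 4 mice, p = 0.8 by exact permutation). As a share of all cells kept they averaged 0.137% ± 0.125 against 0.136% ± 0.107 (SD over 4 mice, p = 1 by exact permutation), and this difference changed sign under other settings.

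Of the 5 cells counted as erythroid, 4 were erythroid-like, with 1292 to 6189 UMIs of the 18 genes of the Erythroid list. Hba-a1 and Hbb-bs, alpha and beta globin, stood at 127384 and 159031 CPM over the 5 cells. Hba-a1 gave 0 UMIs in the 22 B lineage cells and 4 in the 15 monocytes, while Hbb-bs was seen in 21 of the 50 cells. The erythroid-like cell of Mono mouse 4 had 575 genes and 2603 UMIs. Counted over every S100-low cell with 50 or more Erythroid UMIs, 4 of 9 were cycling (44.4%, Wilson interval 18.9 to 73.3), 1 of 1 in Mono and 3 of 8 in Mono+MCTR3.

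The fifth, in Mono+MCTR3 mouse 2, entered through 41 UMIs of Car2 alone. It had 0 UMIs of Hba-a1 and Hbb-bs, and it held 12 UMIs of the stem and progenitor list, among them 4 of Myb and 2 each of Cd34, Gata2 and Meis1, and 6 of the megakaryocyte list, among them 2 of Pf4. It reached the rule with exactly 4 UMIs but held 60 UMIs of the G2/M list. It goes against the erythroid label and is left unnamed.

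T/NK cells split evenly by Cd3. Of the 6, 3 held Cd3d, Cd3e and Cd3g, components of the T-cell receptor complex, with 11 to 18 UMIs of Cd3g and 11 to 25 of Trbc2. Cd8b1 gave 1, 13 and 24 UMIs in them and Cd4 gave 0. The other 3 had 0 UMIs of the 3 Cd3 genes and held Klrb1c (NK1.1), with 2 to 13 UMIs, Gzma, a granzyme, with 29 to 76, and Klre1 with 5 to 8. Ccl5, a chemokine of effector lymphocytes, led the 6 cells at 12675 CPM. The T-cells came from Mono mouse 4 (2) and Mono+MCTR3 mouse 2 (1), and the NK-like cells from Mono mouse 3 (1) and Mono+MCTR3 mouse 2 (2). As a share of T/NK cells, cycling ones were 0%, 0%, 0.813% and 0.833% in Mono and 0%, 1.49%, 0% and 0% in Mono+MCTR3, and the difference between 0.412% ± 0.475 and 0.371% ± 0.743 was within their spread (SD over 4 mice, p = 1 by exact permutation).

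Single cells stood outside these lineages. The mixed cell, in Mono+MCTR3 mouse 1, held 1919 UMIs of the mast and basophil list, made of Prss34 (1033) and Mcpt8 (840), proteases of basophils, with 21 of Cpa3, 16 of Ms4a2 and 9 of Fcer1a. It also carried 15 UMIs of Mpo and 16 of the stem and progenitor list, 128 of Ccl4 and 20 of Il6, and with 71 UMIs of the G2/M list it was basophil-like and late in the cycle. In all, 9 S100-low cells held 50 or more UMIs of that list, of which this 1 was cycling. The cell with none of the sets, in Mono+MCTR3 mouse 2, held 654 UMIs of the Mature B list through the MHC class II genes (Cd74 297, H2-Aa 185, H2-Eb1 171), with 0 of Ms4a1 and Cd79a, 91 of Cst3 and 80 of Fabp5. It is left unnamed.

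The upper limit of 3000 genes, meant to remove doublets, removed dividing cells. Of 40 otherwise acceptable barcodes over the limit, 24 (60%) met the rule, against 0.488% of the cells kept and 1.36% of those with little S100a8 and S100a9. The 24 had a median of 13087 UMIs, against 2460 in the S100-low cells kept that were not cycling. The part of this depth in the 60% was not tested. Without the limit there would be 74 cycling cells, 32.4% of them over it. By mouse, the 24 lay at 6, 1, 0 and 2 in Mono and 3, 8, 2 and 2 in Mono+MCTR3. They were counted as 11 monocytes, 8 B lineage cells, 3 erythroid, 1 mixed and 1 progenitor. Thus 42.3% of the cycling cells counted as monocytes and 26.7% of cycling B lineage cells were lost. Of the 11, 2 went against the monocyte name, with 64 and 77 UMIs of the Dendritic list and 37 and 26 of the monocyte and macrophage list. Scrublet, which scores barcodes against simulated doublets, called 56 of 10296 cells (0.544%), among them 0 of the 50 and 0 of the 24.

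**Figure D4:**
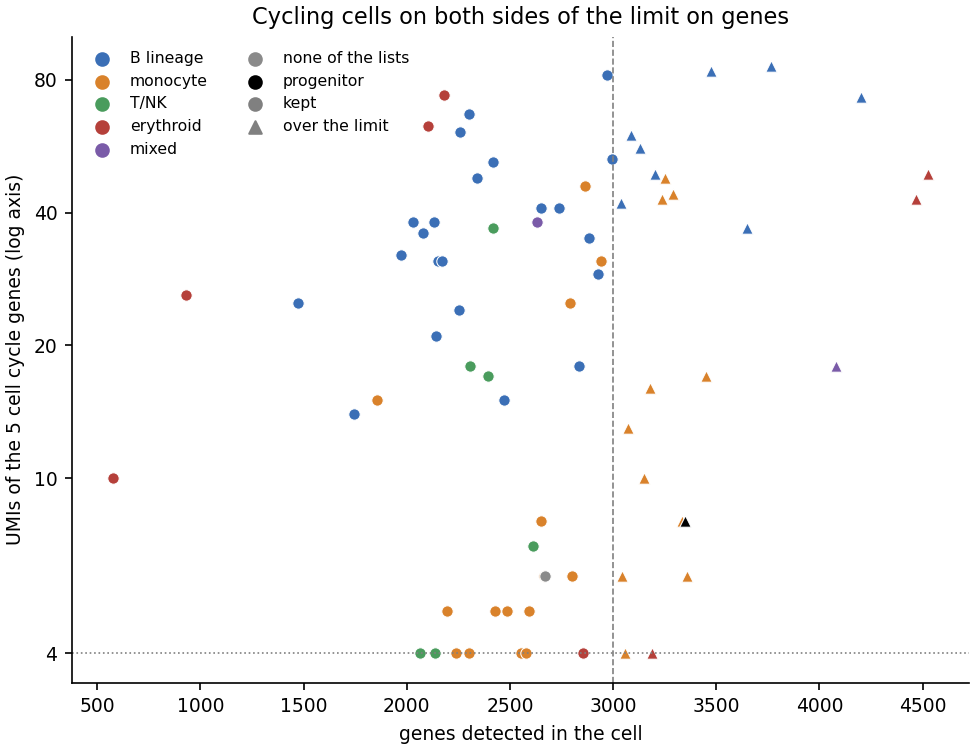
Genes detected (horizontal) and UMIs of the 5 cell cycle genes (vertical, log axis) in the 50 cycling cells kept (circles) and the 24 over the limit of 3000 genes (triangles, limit dashed), coloured by lineage. The 24 cells reach 4526 genes and continue the cloud of the 50 without a gap, and the dotted line marks the cut at 4 UMIs.

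The B lineage cells over the limit were richer in the surrogate light chain. All 8 carried Igll1 and Vpreb1, with medians of 29.5 and 30 UMIs, and 7 carried Dntt, against 7, 6 and 1 of the 22 below it. Igkc fell the other way, at 70.8 CPM above and 1970 CPM below the limit. The sums of the 5 cell cycle genes had a median of 58 UMIs above the limit, against 35.5 below. Those are raw counts from deeper cells, with a median of 12489 against 6823 UMIs. Per UMI the 5 genes stood lower above the limit, at 4311 against 5154 CPM. One erythroid cell each of Mono mouse 1 and Mono+MCTR3 mouse 2 held 343 and 368 UMIs of the Erythroid list among 27833 and 29912 UMIs in all. The third, of Mono mouse 4, held 0. The progenitor cell, of Mono mouse 1, held 1574 UMIs of the mast and basophil list beside 45 of Mpo.

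Expression was compared between the groups with the UMIs of all cycling cells summed per mouse, in mice with at least 5 of them. These were Mono mice 1 and 4 (5 and 9 cells) and Mono+MCTR3 mice 1 and 2 (6 and 21 cells). Of 897 genes tested, 1 (0.111%) passed an adjusted p of 0.05 (edgeR quasi-likelihood test, Benjamini-Hochberg), and 59 had an unadjusted p under 0.05. No lineage could be fitted alone, because none had 5 cells in 3 mice of each group.

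The gene was Ly6d (chr15:74762056-74763620, minus strand, GRCm38), a surface protein of B lineage cells that plasmacytoid dendritic cells also carry. It stood at 27.1 and 67.2 CPM in the 2 Mono mice (1 and 4 UMIs) and at 1230 and 1010 CPM in the 2 Mono+MCTR3 mice (62 and 175 UMIs). Those values were well apart, with a fitted log2 difference of 4.42 (SE 0.47, edgeR adjusted p = 0.0196). The mice with too few cells for the test did not keep this gap, with 58.5 and 0 CPM in Mono mice 2 and 3 and 42.7 and 269 CPM in Mono+MCTR3 mice 3 and 4.

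Most of the Ly6d UMIs came from 2 cells. The 2 cells with dendritic markers held 49 of the 62 UMIs in Mono+MCTR3 mouse 1 and 111 of the 175 in mouse 2, and no cycling cell of Mono carried 50 UMIs of the Dendritic list. Without them the log2 fold change fell from 4.42 to 2.80 and was not called (adjusted p = 0.591 in edgeR, an alternative chosen after seeing the data), and 0 genes were called, with 63 at an unadjusted p under 0.05. Within B lineage cells Ly6d gave 0 to 2 UMIs per cell in Mono (6 cells) and 0 to 15 in Mono+MCTR3 (16 cells). Per mouse this was 98.7, 155 and 213 CPM in Mono mice 1, 2 and 4 and 537, 808, 107 and 767 CPM in Mono+MCTR3, so that mouse 3 overlapped with Mono. Early-class B lineage cells that were not cycling carried far more, at 3478 to 8441 CPM in Mono and 4174 to 6248 CPM in Mono+MCTR3, with the groups overlapping.

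**Figure D5:**
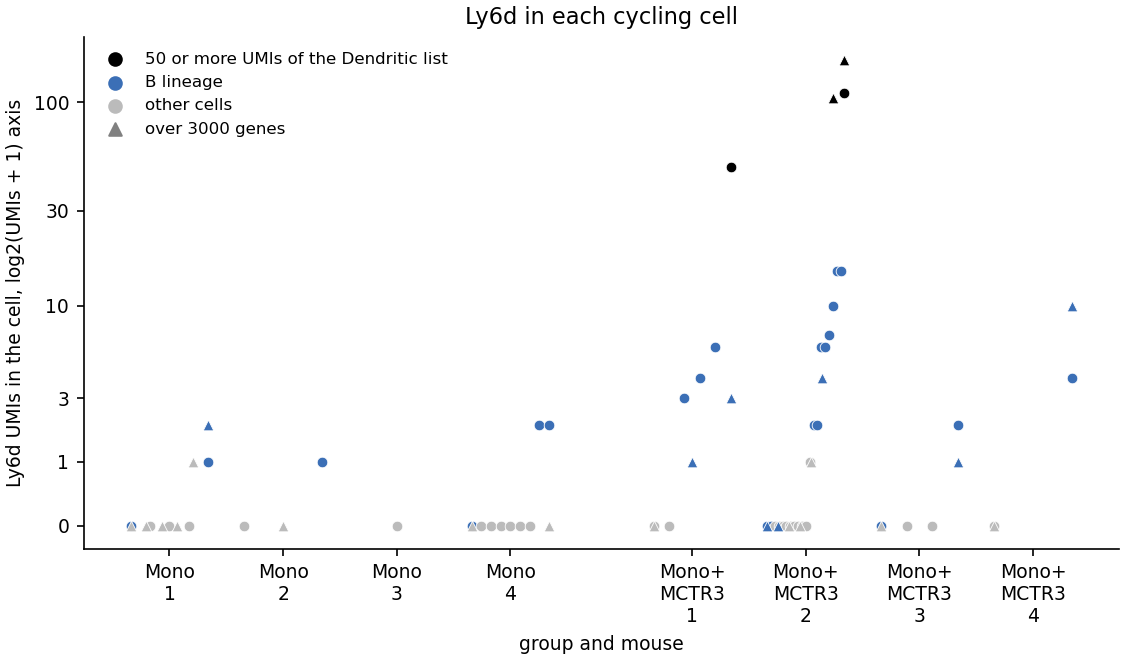
Ly6d UMIs in each cycling cell (vertical, log2(UMIs + 1) axis) by group and mouse, with cells over 3000 genes as triangles. Black points are the cells with 50 or more UMIs of the Dendritic list, blue points the B lineage and grey points all others; the 4 black points, at 49 to 159 UMIs, all lie in Mono+MCTR3 mice 1 and 2.

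With no upper limit on genes, Ly6d had a log2 fold change of 4.45 and was not called (adjusted p = 0.464 in edgeR), and 0 genes were called, with 134 at an unadjusted p under 0.05. It was not called without Mono mouse 4 either, with a log2 fold change of 5.38 (adjusted p = 0.137 in edgeR). Over the limit, 2 further cells with dendritic markers, both of Mono+MCTR3 mouse 2, held 159 and 105 Ly6d UMIs.

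Other genes with the highest fitted log2 fold changes did not pass the test. Ccl4, a chemokine, had 3.68 (SE 1.12, adjusted p = 0.588 in edgeR), and 128 of its 135 UMIs in Mono+MCTR3 mouse 1 came from the basophil-like cell. Ccl3 had 1.71, with 112 of 134 UMIs in that mouse from the same cell. Cdkn2d, an inhibitor of cyclin-dependent kinases, had 1.71, with 136 and 67.2 CPM in Mono and 238 and 341 CPM in Mono+MCTR3. Hist1h2bc, a histone gene, had 1.53, with 217 and 151 against 456 and 549 CPM. At the other end stood the T-cell genes Trbc1 (-1.82) and Ms4a4b (-1.73), Id2 (-1.66), Ccl5 (-1.63) and Tgfbi (-1.45), a monocyte gene. Id2 gave 56 UMIs in the 6 cycling T/NK cells and 6 in the 22 cycling B lineage cells. Trbc1 was at 0 UMIs in the mouse 1 of each group, where no T/NK cell was cycling.

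No gene of the marker and cell cycle lists was called. Of the S phase list 7 of 14 genes were tested, with a median log2 fold change of -0.17, and of the G2/M list 10 of 21, with a median of 0.69 and 9 above 0. Over all 897 genes the median was -0.01. Of the Early B list 4 of 12 were tested (median 0.34), of the Erythroid list 3 of 18 (-0.46) and of the monocyte and macrophage list 5 of 15 (-0.79). Of the Mature B list 3 of 9 were tested (median 1.09), and the unnamed MHC class II cell held 297 of the 371 UMIs of Cd74 and 185 of the 217 of H2-Aa in Mono+MCTR3 mouse 2. B lineage cells were 2 of 5 and 3 of 9 cells in the Mono mice and 3 of 6 and 10 of 21 in the Mono+MCTR3 mice, and the part of this mix in the differences was not tested.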

How the data were processed

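CD45+ cells from the paw joints of 4 Mono and 4 Mono+MCTR3 mice were measured by single cell RNA sequencing. For each group the authors deposited a single table of UMI counts by gene, whose libraries Cell Ranger had aligned to GRCm38 and aggregated. Cell Ranger, GRCm38 and edgeR stand in the submitters' notes on processing, without versions. The tables hold 28434 gene rows and 10538 barcodes. Of the rows, 17 repeat a name and 26 read as a date, with 0.0737% of the UMIs in these.

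A barcode was kept if it had 250 to 3000 genes, 500 UMIs or more, and no more than 5% of UMIs from mitochondrial genes. The cells, lineages and lists were chosen with earlier results of these data known. Shares were compared over mice with two-sided exact permutation tests, adjusted by Benjamini-Hochberg over lineages. A share within a lineage was compared where every mouse had at least 5 cells of it. UMIs were summed per mouse and compared with edgeR 4.0.16 (TMM, filterByExpr, glmQLFit) in R 4.3.3, with SE as the absolute log2 fold change over the square root of F. The fit was tested on simulated data. Doublets were called with Scrublet in scanpy 1.11.5, with 0.8% expected per 1000 cells, and were kept.

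Genes named are those called, the 5 most extreme log2 fold changes in each direction among genes with at least 50 UMIs, the genes of the rules, the 4 genes of each list with the most UMIs, and in each lineage the leading 5 by fold against all other cycling cells (50 CPM added, at least 20 UMIs). Other list members and genes of single cells were named after their values were seen. Alternatives were cuts of 3 and 6 UMIs, S100 limits of 2% and 10%, a mitochondrial limit of 10%, no limit on genes, doublets removed, thinning to 1000 UMIs, other lineage markers, at least 4 lineage UMIs, no filter on low counts, library totals in place of TMM, the likelihood ratio test of edgeR, DESeq2 1.42.0, and each mouse left out. Coordinates come from GENCODE vM21 and promoters from RefSeq.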

Additional observations from a re-analysis of the deposited data

Results flagged for a closer look

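In each group of 4 mice, a value was looked at again when it stood apart from the other 3 by more than Dixon's 95% critical value. The usual chance rate of about 1 in 20 does not apply to these shares, which hold tied values and use the same counts more than once. Of 26 groups checked, 6 stood out, all from counts of 0 to 3 cells or from equal values in the other 3 mice. The share of T/NK cells in Mono+MCTR3 mouse 2 was 0.157% of the cells kept, 14.3% of the cycling cells and 1.49% of the T/NK cells, from 3 cells, while the other 3 mice had 0. The erythroid cell of Mono mouse 4 gave 0.0751% of the cells kept and 11.1% of the cycling cells, and the other 3 Mono mice had 0. The B lineage share of the cycling cells was 47.6% in Mono+MCTR3 mouse 2 and 50% in each of the other 3.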

How the results depend on the processing

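The 13 shares and ratios were recomputed 221 times under other settings, and none passed an adjusted p of 0.05 in any, as in the values reported. Much of this was fixed by the number of mice. With 1 mouse left out, no exact permutation test can reach a p of 0.05. With all mice, the smallest possible p of 0.0286 cannot pass the adjustment in 1 lineage alone. The B lineage with no limit on genes reached that p and was adjusted to 0.0857. In 13 of the 221 the sign changed, all in monocytes or T/NK cells. Cycling monocytes as a share of the cells kept differed by -0.00148 percentage points, and by 0.00431 with a cut of 6 UMIs, 0.00278 with no limit on genes and 0.0247 with other lineage markers, and by -0.0472 to 0.0438 when a mouse was left out. As a share of monocytes the difference of 1.73 ran from -0.174 to 3.99 without 1 mouse. Cycling T/NK cells ran from -0.0588 to 0.0109 of the cells kept and from -0.412 to 0.1 of the T/NK cells. The cause of these changes was not tested.

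The count of called genes (1) was 2 with DESeq2, 25 with no filter on low counts, 2 with a cut of 3 UMIs, 23 with a cut of 6 UMIs, 0 with no limit on genes, 0 without the cells with dendritic markers, and 0 to 37 when a mouse was left out, where the lone mouse of a group is assumed to vary like the others (22 without Mono mouse 1, 0 without Mono mouse 4, 15 without Mono+MCTR3 mouse 1, 37 without Mono+MCTR3 mouse 2). The cause was not tested. Ly6d was among the calls in 12 of its 15 settings. Fits with 10 cells per mouse, without B lineage cells, or of 1 lineage could not be run for want of mice. No paired analysis was possible because the groups share no replicate numbers in the labels. With 1 to 21 cells per mouse, depth limits every share here.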
